A study of Mus musculus with 12 samples.

Results

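The genes described here are known to follow the growth of fat mass: Lep, Mest, Npr3, Sfrp5, Bmp3, Cav1 and Cav2. They were read in abdominal fat pads of female mice, through the probe sets that the array's annotation gives to each symbol. Of the 7 genes, 6 had probe sets, 10 in all, among 18195 genes measured, and Bmp3 was not analysed here. They were chosen by what is known of fat expansion and with earlier results of these arrays in view, above all the difference between null and wild type pools on the high fat diet. That difference is therefore described for these genes and not tested.

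The study asked how the loss of p47phox alters fat tissue under a control and a high fat diet. p47phox, encoded by Ncf1, is the cytosolic organiser subunit of the NADPH oxidase that makes superoxide in phagocytes. All mice were C57BL/6 females, either wild type (WT) or lacking p47phox (P47KO, called null below). Each genotype received casein, the control diet, or a high fat diet (HFD) from postnatal day 28 for 13 weeks. Genotype and diet make 4 groups, each with 3 pools of fat pads and 1 array a pool, 12 arrays in all. The number of animals in a pool, the depot within the abdomen and the way the null allele was made are not given in the sources used here.

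Adipocytes store triglyceride and, as they enlarge, change what they make. Lep encodes leptin, the hormone that adipocytes release in proportion to fat stores and that acts on the brain to restrain feeding. Mest is a paternally expressed imprinted gene, whose product resembles an alpha/beta hydrolase and whose level in mouse fat rises when fat mass expands. Npr3 is the clearance receptor that removes natriuretic peptides, which stimulate lipolysis. Sfrp5 is a secreted antagonist of WNT ligands made by adipocytes. Cav1 and Cav2 encode caveolins, the membrane proteins of caveolae, which are dense on the adipocyte surface and also on endothelium.

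In the mouse reference, 4 of the 7 genes lie on chromosome 6, in the order Cav2, Cav1, Lep and Mest. The table of RefSeq genes (GRCm38.p6) places 0 protein-coding genes between Cav2 and Cav1, 43 between Cav1 and Lep and 30 between Lep and Mest. Npr3 is on chromosome 15, Sfrp5 on 19 and Bmp3 on 5. The windows below, from RefSeq on GRCm38.p6, run from 250 bases before to 50 bases after an annotated start on the plus strand. They are shown because these 4 genes are carried by 1 chromosome and include both the strongest and the mildest responses of the set. Capitals mark matches to 5 motifs searched on both strands: the TATA box core TATAAA, the CCAAT box core CCAAT, the GC box core GGGCGG, the E-box CACGTG and the nuclear receptor motif AGGTCA.
Lep, chr6:29059971-29060270: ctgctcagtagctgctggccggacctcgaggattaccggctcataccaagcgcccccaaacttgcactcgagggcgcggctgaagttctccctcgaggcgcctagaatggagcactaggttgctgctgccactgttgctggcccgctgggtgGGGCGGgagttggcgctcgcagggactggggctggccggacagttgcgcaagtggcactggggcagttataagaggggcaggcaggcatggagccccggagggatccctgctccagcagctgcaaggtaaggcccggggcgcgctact
Mest, upstream start, chr6:30733256-30733555: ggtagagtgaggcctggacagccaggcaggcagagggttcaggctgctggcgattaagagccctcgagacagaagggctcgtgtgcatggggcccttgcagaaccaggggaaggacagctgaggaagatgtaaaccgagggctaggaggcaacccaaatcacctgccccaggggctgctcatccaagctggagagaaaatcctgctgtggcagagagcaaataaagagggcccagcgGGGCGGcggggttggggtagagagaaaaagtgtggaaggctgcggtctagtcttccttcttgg
Mest, downstream start, chr6:30737800-30738099: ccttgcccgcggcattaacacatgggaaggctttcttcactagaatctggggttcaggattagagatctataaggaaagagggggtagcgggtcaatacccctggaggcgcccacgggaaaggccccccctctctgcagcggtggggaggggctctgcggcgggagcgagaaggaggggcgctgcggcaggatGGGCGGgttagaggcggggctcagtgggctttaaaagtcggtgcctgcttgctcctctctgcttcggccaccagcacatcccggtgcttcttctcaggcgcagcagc
Cav2, chr6:17280935-17281234: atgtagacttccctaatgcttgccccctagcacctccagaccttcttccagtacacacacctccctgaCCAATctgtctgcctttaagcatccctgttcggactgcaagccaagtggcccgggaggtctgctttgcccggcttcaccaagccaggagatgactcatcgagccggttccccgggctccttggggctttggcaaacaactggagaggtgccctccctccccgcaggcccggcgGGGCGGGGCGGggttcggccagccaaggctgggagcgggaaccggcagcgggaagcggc
Cav1, chr6:17306085-17306384: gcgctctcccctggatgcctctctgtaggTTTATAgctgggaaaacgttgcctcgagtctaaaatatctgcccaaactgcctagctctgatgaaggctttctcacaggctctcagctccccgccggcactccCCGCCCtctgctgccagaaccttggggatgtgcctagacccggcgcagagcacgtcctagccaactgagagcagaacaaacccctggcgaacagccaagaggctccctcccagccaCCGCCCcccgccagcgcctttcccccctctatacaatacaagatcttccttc

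GGGCGG was found in 7 of the 9 windows of the set, which belong to 5 of the 6 genes measured. It occurs in 35.7% of the 32851 mouse promoter windows of 300 bases that were searched. These leave out a chromosome that carries no gene of the set, and they are called all windows here. Mest has 3 annotated starts, of which the third lies 3 bases past the downstream one shown, and Cav1 has 2. The windows of Lep, Sfrp5, Cav2, all starts of Mest and the Cav1 start shown hold the motif, while that of Npr3 and the other Cav1 window (chr6:17307390-17307689) do not. In Cav2 a pair of matches overlap by a base, 9 and 4 bases before the start. CCAAT was found in 3 of the 9 windows, those of Npr3, Sfrp5 and Cav2, against 37.4% of all windows. The only TATAAA match was on the minus strand of the Cav1 window, 221 bases before the start, and 13.6% of all windows hold that motif. The E-box and the nuclear receptor motif had 0 matches in the 9 windows, against 7.15% and 16.3% of all windows. GC content ran from 39.0% in the Npr3 window to 66.0% in that of Lep, where the median of all windows is 52.7%. A match describes letters and is no evidence of binding.

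The transcribed span of Mest also holds a microRNA, miR-335, on the same strand. Its mature sequences are shown because an array value for Mest reports on the host transcript and not on the microRNA, which was not analysed here. Capitals mark the seed, bases 2 to 8, which pairs with target messages, and the seeds of the 5p and 3p arms differ.
mmu-miR-335-5p, chr6:30741314-30741336: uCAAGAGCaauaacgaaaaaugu
mmu-miR-335-3p, chr6:30741354-30741375: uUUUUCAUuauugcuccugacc

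The values are on the log2 scale, and in the deposited table each probe set is centred on its median over the 12 arrays. A value of 1 therefore means 2-fold above that median, and the values show differences between pools and not how strongly a gene is expressed. For the same reason no marker can be called present or absent in the pads. Where a gene has several probe sets, their mean was taken. A gene is called separated between 2 groups when no pool of one reaches into the range of the other. Ncf1, read as a check of the genotype, lay between 0.07 and 0.85 in the 6 WT pools and between -0.29 and -0.19 in the 6 null pools.

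Markers of other tissues and cell types varied between pools, beside every result below. The median of 21 skeletal muscle markers stood at 4.59 in WT HFD pool 2, 3.75 in null HFD pool 1 and 2.77 in WT casein pool 1. That of 15 liver genes stood at 4.64 in WT casein pool 3. The median of the 20 measured of 21 ovary, oviduct and uterus markers separated the genotypes on the HFD, at -1.03 to -0.91 in WT pools and 0.12 to 0.90 in null pools. The median of the 17 measured of 21 mature adipocyte markers separated them the other way, at 0.17 to 0.31 in WT pools and -0.55 to -0.05 in null pools. The median of 7 brown and beige adipocyte markers was highest in WT casein pools, at 0.65 to 2.52, against -0.95 to 1.12 in WT HFD pools and -1.25 to 0.86 in null casein pools. The median of 15 endothelial markers ran from 0.24 to 0.59 in WT HFD pools and from -0.26 to -0.002 in null HFD pools. The part of these differences in the results below was not tested. In pooled tissue, fewer cells of a type and less RNA per cell cannot be told apart.

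All 6 genes had the same order of group means. WT pools on the HFD stood highest, followed by WT pools on casein, null pools on casein and null pools on the HFD. How clearly neighbouring groups parted differed from gene to gene, and null pools on casein and on the HFD overlapped for all 6.

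Leptin parted the genotypes on both diets. Lep (probe set 1422582_at) stood at 0.13, 0.60 and 0.32 in WT casein pools 1, 2 and 3 and at 0.71, 0.51 and 1.71 in WT HFD pools. In null pools it stood at -0.13, -0.74 and -0.71 on casein and at -0.49, -0.71 and -0.79 on the HFD. Every null pool lay below every WT pool, whichever the diet. The diets overlapped within each genotype, and WT HFD pool 3 was far above the next highest of the 12.

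Mest (1423294_at) spread over a wider range and, unlike Lep, parted the diets in WT pools. Its values were 0.04, 0.22 and 0.43 in WT casein pools and 1.31, 1.17 and 2.90 in WT HFD pools. In null pools they were -0.04, -1.33 and -1.47 on casein and -0.80, -0.77 and -1.33 on the HFD. WT HFD pools lay above all other pools, WT casein pools came next, and null casein pool 1 lay just below the lowest of these.

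Npr3 was read by 3 probe sets (1435184_at, 1448024_at and 1450286_at). Their mean was 0.05, 0.49 and 0.21 in WT casein pools and 0.76, 0.53 and 1.22 in WT HFD pools. In null pools it was -0.02, -1.34 and -1.48 on casein and -1.11, -1.67 and -1.90 on the HFD. As for Mest, both WT groups were separated from each other and WT casein pools from null casein pools. Within null pools its mean was lower on the HFD than on casein, although the pools overlapped.

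Sfrp5, read by probe sets 1423023_at and 1436075_at, varied most within a group. It stood at -0.04, 0.20 and 0.06 in WT casein pools and at -0.33, 1.205 and 2.37 in WT HFD pools. In null pools it stood at 0.16, -0.36 and -0.22 on casein and at 0.45, -0.43 and -0.52 on the HFD. No neighbouring groups were separated. WT HFD pool 1, which lay above every casein pool for the other 5 genes, was lower for Sfrp5 than every casein pool except null pool 2.

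The caveolins moved over a narrow range. Cav1 (1449145_a_at) stood at 0.05, 0.19 and -0.05 in WT casein pools and at 0.36, 0.17 and 0.29 in WT HFD pools. In null pools it stood at 0.05, -0.29 and -0.31 on casein and at -0.19, -0.35 and -0.61 on the HFD. Cav2 (1417327_at and 1425955_at) stood at -0.05, 0.20 and -0.15 and at 0.45, 0.21 and 0.35 in the same WT groups, and at 0.05, -0.33 and -0.36 and at -0.14, -0.33 and -0.82 in the null groups. Both were highest in WT HFD pool 1 and lowest in null HFD pool 3.

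**Figure D1:**
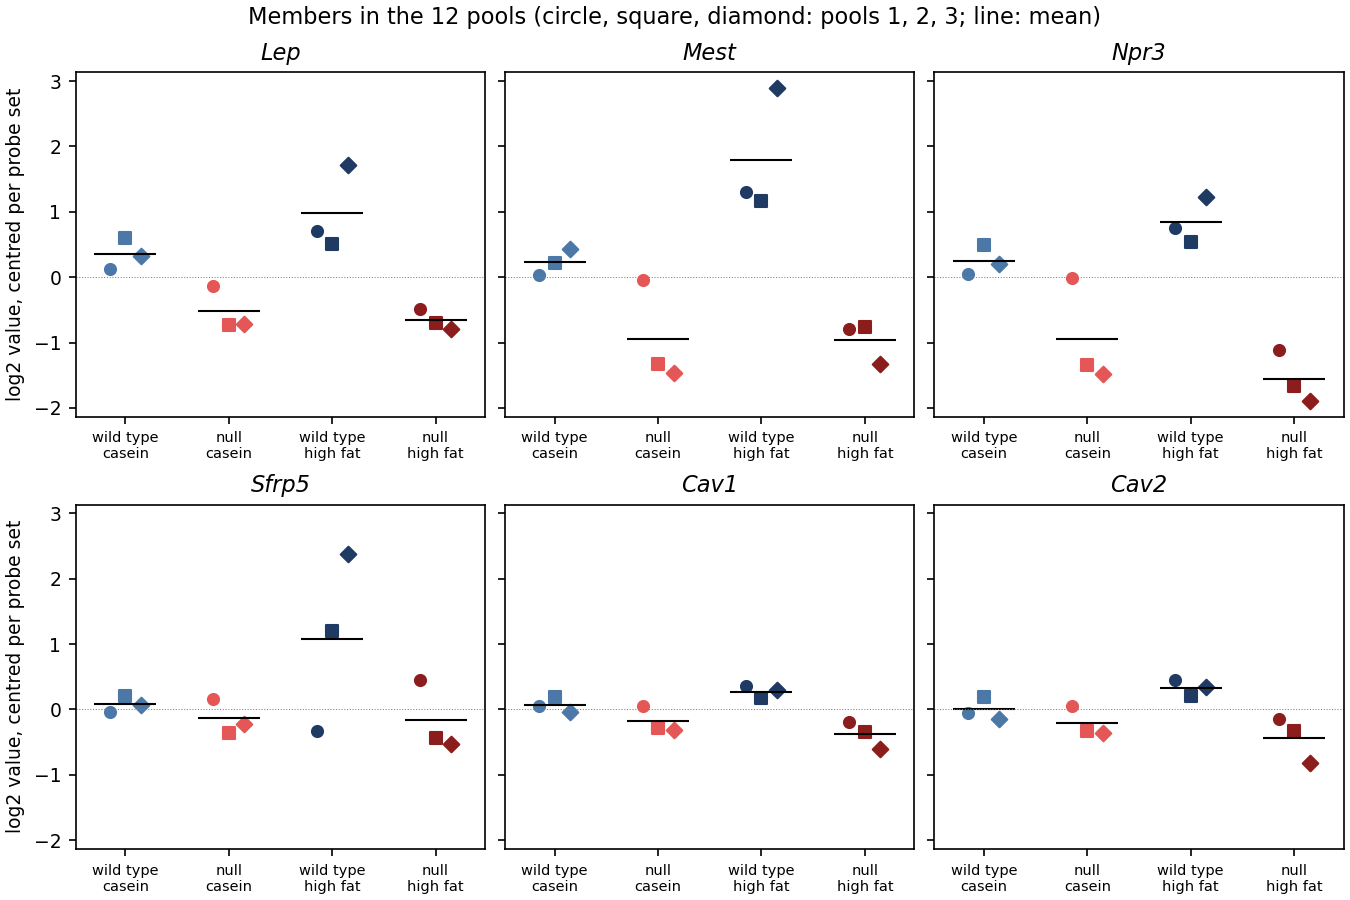
The log2 value of each gene, centred per probe set, in the 12 pools (circle, square and diamond are pools 1, 2 and 3, and the line is the group mean). WT HFD pools stand highest on average for all 6 genes, and for Lep every null pool lies below every WT pool.

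One pool of each of 2 groups stood apart. Null casein pool 1 was above null casein pools 2 and 3 for all 6 genes, by 1.29 and 1.43 for Mest. WT HFD pool 3 was the highest of the 12 pools for Lep, Mest, Npr3 and Sfrp5, but not for Cav1 or Cav2. The mature adipocyte median was 0.27 in null casein pool 1 against -0.07 and -0.18 in the other null casein pools. It was 0.31 in WT HFD pool 3 against 0.19 and 0.17 in the other pools of that group. Its part in these gaps was not tested.

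The diets were compared in WT pools to ask how these genes answer a HFD when p47phox is present. All 6 differences were above 0, with a median of 0.61 on the log2 scale against 0.001 over all genes, and 0 of 6 passed in limma (adjusted p 0.538 to 0.721, two-sided, adjusted over all genes with a threshold of 0.05). Mest differed by 1.56 ± 0.46 (SE, n = 3 pools a group), a 2.95-fold higher mean on the HFD, which was the 7th largest difference upward of 18195. Sfrp5 differed by 1.01 ± 0.53, Lep by 0.63 ± 0.28 and Npr3 by 0.59 ± 0.36. The caveolins differed by 0.21 ± 0.13 for Cav1 and by 0.33 ± 0.18 for Cav2.

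No gene of the array passed this comparison (0% of 18195), and 1384 had an unadjusted p under 0.05, among them Mest but none of the other 5. Mest, Npr3 and Cav2 were separated upward, 3 of 6, where 7.07% of all genes were, and none was separated downward (4.86% of all genes). Read alone, neither probe set of Cav2 was separated, and of those of Npr3 1435184_at was not. Without WT HFD pool 3 the differences were 1.01 for Mest, 0.26 for Lep and 0.36 for Sfrp5, while without pool 1 that of Sfrp5 was 1.71. Quantile normalization of the deposited values gave larger differences of 2.42 for Mest, 0.97 for Lep and 0.95 for Npr3, with no call. These pools also enter the genotype comparison on the HFD from which the genes were known, so the direction is not independent of their choice.

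In null pools the diet differences ran the other way or lay close to 0. All 6 were below 0, with a median of -0.17 against -0.0002 over all genes, and 0 of 6 passed in limma (adjusted p = 0.9996 for each, 0% of 18195 genes called, 727 at an unadjusted p under 0.05, none of the 6 among them). Lep differed by -0.13 ± 0.28 (SE, n = 3 pools a group), Mest by -0.02 ± 0.46, Npr3 by -0.61 ± 0.36 and Sfrp5 by -0.03 ± 0.53. Cav1 differed by -0.20 ± 0.13 and Cav2 by -0.22 ± 0.18. No gene of the set was separated, where 5.70% of all genes were separated downward and 4.89% upward. The sign was not steady: without null casein pool 1 Lep, Mest and Sfrp5 stood at 0.06, 0.43 and 0.12. Npr3 stayed below 0 there, at -0.15, and so did both caveolins. Null HFD pools also enter the genotype comparison on the HFD, so the direction is not independent of the choice of the genes.

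The test of whether the diet change differed between genotypes is the interaction, that is, the diet difference of null pools less that of WT pools. All 6 were below 0, with a median of -0.90 against -0.004 over all genes, and 0 of 6 passed in limma (adjusted p 0.789 to 0.830). Over the array 0% of genes passed and 1113 had an unadjusted p under 0.05, among them Mest, Npr3, Cav1 and Cav2. The interaction was -1.58 ± 0.66 (SE, n = 3 pools a group) for Mest, the 4th lowest of 18195, -1.198 ± 0.505 for Npr3 and -1.04 ± 0.75 for Sfrp5. It was -0.76 ± 0.40 for Lep, -0.41 ± 0.18 for Cav1 and -0.56 ± 0.25 for Cav2. A different response of the genotypes to the diet was therefore not shown for any gene of the set. The HFD pools also enter the genotype comparison on the HFD from which the genes were known. Direction and rank of the interaction are thus not independent of the choice of the genes. Without WT HFD pool 3 the interaction was -1.03 for Mest, -0.39 for Lep and -0.39 for Sfrp5. Without WT HFD pool 1 that of Sfrp5 was -1.74, without null casein pool 1 that of Npr3 was -0.74, and without null HFD pool 3 that of Cav2 was -0.36.

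**Figure D2:**
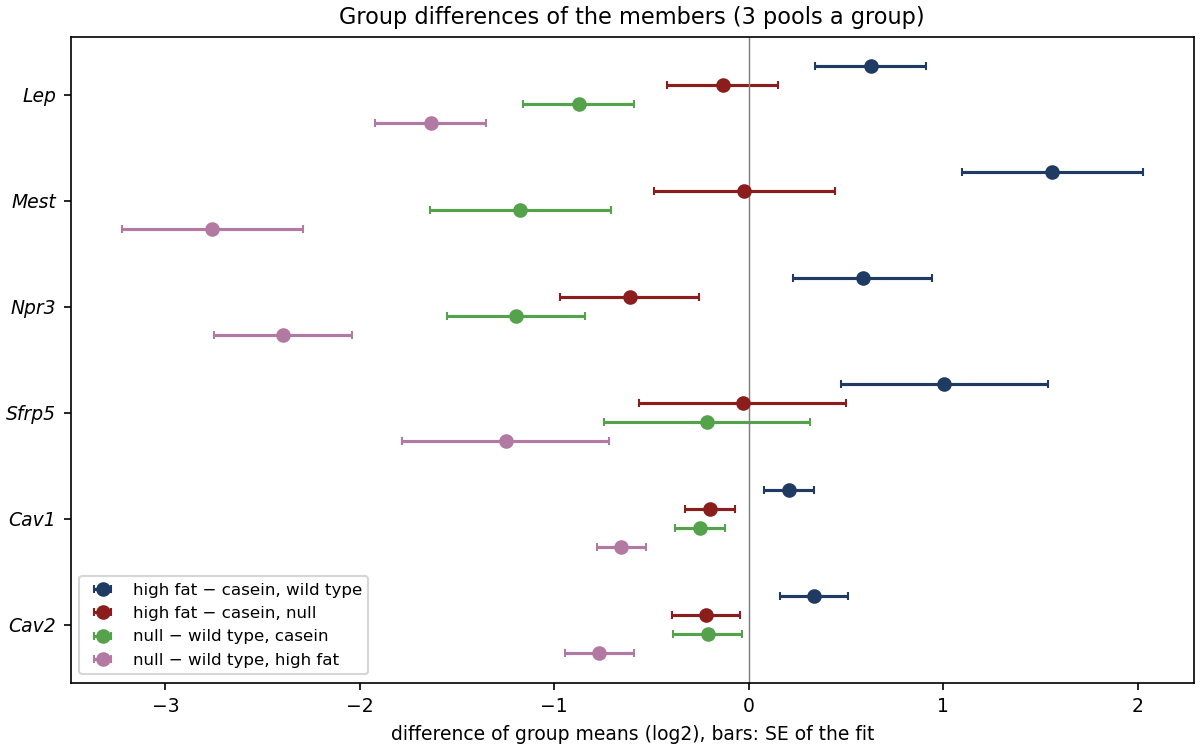
Differences of group means on the log2 scale for the 6 genes, with the SE of the fit as bars and 3 pools in each group. WT diet differences lie above 0 and genotype differences below 0 for all 6 genes, and those on the HFD are the largest in size.

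The genotypes were compared on casein to see how far the genes differ without high fat feeding. Lep, Mest and Npr3 were separated downward in null pools, 3 of 6 genes against 6.57% of all genes, and none of the 6 was separated upward (5.40% of all genes). None of the 6 passed in limma (adjusted p 0.542 to 0.925). Npr3 differed by -1.196 ± 0.357 (SE, n = 3 pools a group), a mean 2.29-fold lower in null pools. Mest differed by -1.17 ± 0.46, or 2.26-fold, and Lep by -0.88 ± 0.28, or 1.83-fold. The other genes differed less, by -0.25 ± 0.13 for Cav1, -0.21 ± 0.18 for Cav2 and -0.21 ± 0.53 for Sfrp5.

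Over the array 0% of genes passed on casein and 1478 had an unadjusted p under 0.05, among them Lep, Mest and Npr3. The median of the 6 differences was -0.56 against -0.01 over all genes. Without null casein pool 1 the differences were -1.66 for Npr3, -1.63 for Mest, -1.07 for Lep, -0.34 for Cav2 and -0.36 for Sfrp5. Without null casein pool 2 that of Sfrp5 was -0.11, and that of Cav2 was -0.11 without WT casein pool 2 and -0.14 without null casein pool 3. After quantile normalization of the deposited values Npr3, Mest and Lep differed by -2.26, -2.06 and -1.54, still with no call among the 6. On this diet the mature adipocyte median overlapped between genotypes, from -0.08 to 0.23 in WT and from -0.18 to 0.27 in null pools. The ovary, oviduct and uterus median overlapped too, from -1.14 to 0.42 and from -0.04 to 0.31. The 7 brown and beige adipocyte markers had a median difference of -1.84 between null and WT pools on casein and of -1.45 between diets in WT pools, with 0 of 7 called in either. Their part in the differences of Lep, Mest and Npr3 was not tested. With the adipocyte median of each pool subtracted, an alternative chosen after the data were seen, Lep, Mest and Npr3 differed by -0.84 ± 0.23, -1.14 ± 0.37 and -1.16 ± 0.25.

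On the HFD the difference between genotypes lay further below 0 for all 6 genes than on casein, and it is given as a description, since this contrast was known when they were chosen. Mest differed by -2.76 ± 0.46 (SE, n = 3 pools a group), a mean 6.77-fold lower in null pools and the lowest difference of 18195 genes. Npr3 differed by -2.39 ± 0.36, or 5.26-fold, and Lep by -1.64 ± 0.28, or 3.11-fold. Sfrp5 differed by -1.25 ± 0.53 with overlapping pools. Cav2 differed by -0.77 ± 0.18, or 1.70-fold, and Cav1 by -0.65 ± 0.13, or 1.57-fold.

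All 3 null pools lay below all 3 WT pools for 5 of the 6 genes, the exception being Sfrp5. Over the array 17.3% of genes were separated downward in this contrast. Leaving out 1 pool at a time moved Mest between -3.07 and -2.21, Npr3 between -2.62 and -2.20 and Lep between -1.87 and -1.27. Sfrp5 moved more, from -1.96 without WT HFD pool 1 to -0.61 without pool 3. Cav1 moved between -0.75 and -0.54, and Cav2 between -0.91 and -0.57.

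The mature adipocyte median itself differed by -0.53 between null and WT pools on this diet. Of 17 such markers 5 fell in limma, where 2.71% of all genes fell. They were Pparg, the master transcription factor of adipocytes, by 0.78 (adjusted p = 0.0266), Aqp7, the glycerol channel, by 1.17 (adjusted p = 0.0363), Dgat2, which completes triglyceride synthesis, Cebpa and Lpl. With that median subtracted from every gene, Mest differed by -2.23 ± 0.37 (SE, n = 3 pools a group), Npr3 by -1.87 ± 0.25, Lep by -1.11 ± 0.23 and Sfrp5 by -0.72 ± 0.45. The caveolins then differed by -0.13 ± 0.12 for Cav1 and -0.24 ± 0.13 for Cav2. With the medians of the reproductive tract, muscle and liver lists as covariates, Mest differed by -2.47 ± 0.80, Npr3 by -1.67 ± 0.63 and Lep by -1.19 ± 0.51. Sfrp5 then differed by -0.70 ± 0.95, Cav1 by -0.41 ± 0.24 and Cav2 by -0.38 ± 0.32. The reproductive tract median itself separated the genotypes on this diet, so this fit cannot tell tissue content from genotype.

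**Figure D3:**
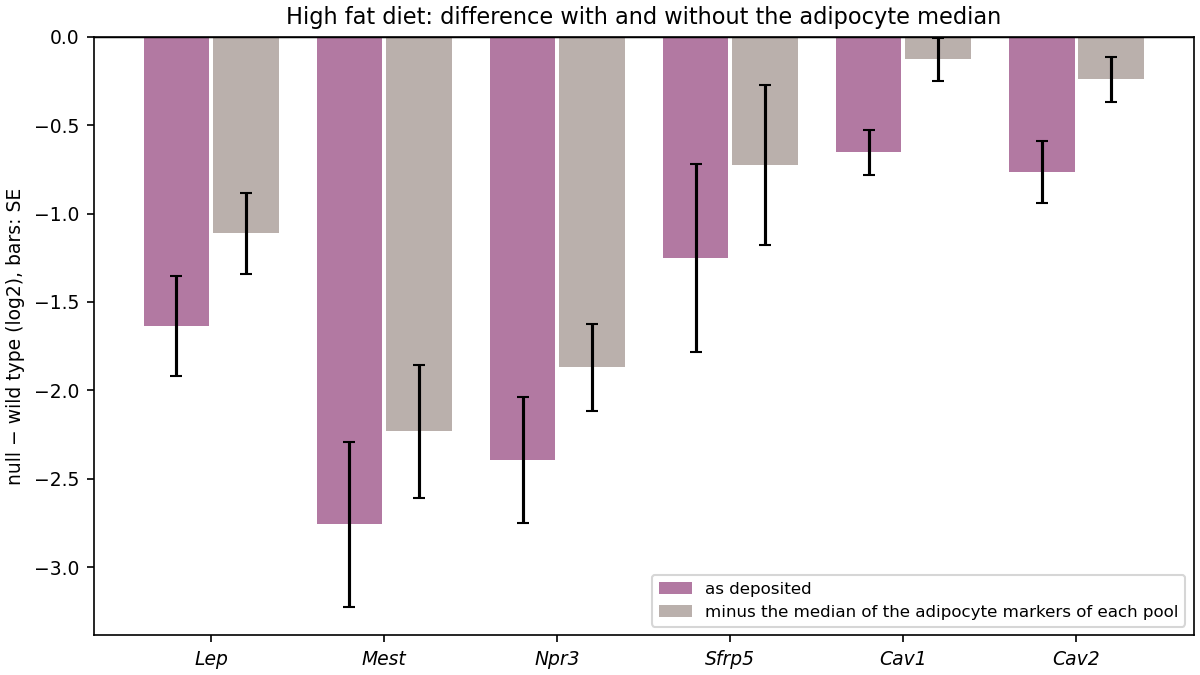
Null minus WT on the HFD (log2, bars with SE, 3 pools a group), as deposited and with the median of the adipocyte markers of each pool subtracted. Mest, Npr3 and Lep remain more than 1 below 0 after the subtraction, while Cav1 and Cav2 come close to 0.

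The pools can be read side by side with the marker lists. Adipocyte and endothelial medians were lowest in null HFD pool 3, where Lep, Npr3, Cav1, Cav2 and Sfrp5 also had their lowest values. Mest was lowest in null casein pool 3. WT HFD pool 2, where muscle markers were highest, had the lowest Lep, Mest and Npr3 of its group, at 0.51, 1.17 and 0.53. Null HFD pool 1, also high in muscle markers, had the highest Lep and Npr3 of its group, at -0.49 and -1.11.

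**Figure D4:**
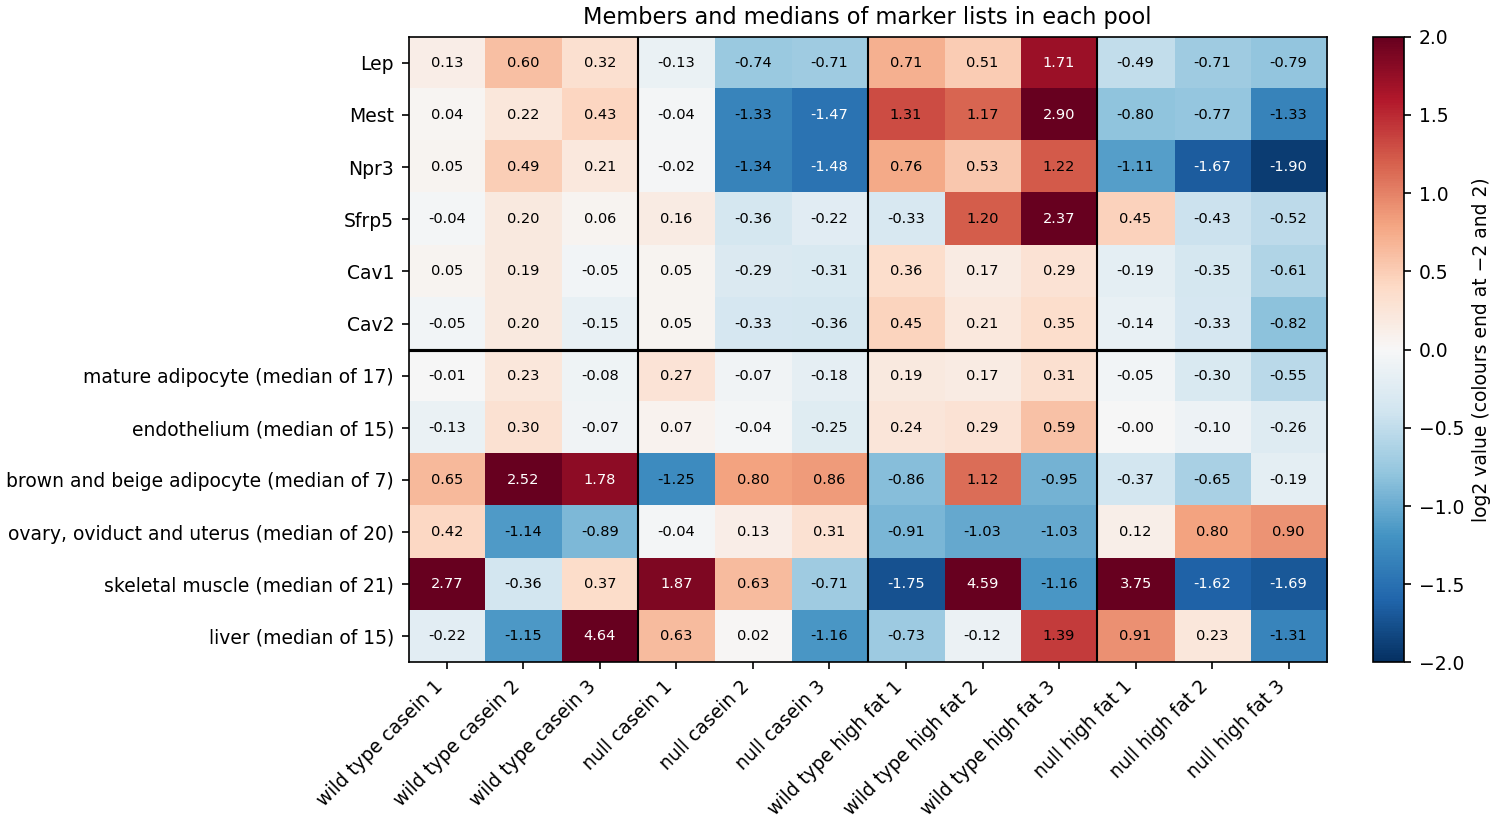
Log2 values of the 6 genes and medians of 6 marker lists in the 12 pools, with colours ending at -2 and 2. Lep, Mest and Npr3 are positive in all WT pools and negative in all null pools, while the muscle and liver medians peak in single pools of several groups.

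Probe sets of a gene were compared because a gene value averages over them. The 3 probe sets of Npr3 had like differences, at -2.16, -2.43 and -2.59 between genotypes on the HFD and at -1.02, -1.16 and -1.41 on casein. Their separations differed. On casein 1450286_at overlapped between the genotypes. Between diets in null pools only 1435184_at was separated, downward by 0.68. For Sfrp5 probe set 1436075_at reached 1.94 and 3.05 in WT HFD pools 2 and 3, against 0.47 and 1.69 for 1423023_at. Both read low in pool 1, at -0.57 and -0.09. The probe sets of Cav2 disagreed on casein, where 1417327_at differed by -0.48 ± 0.25 and 1425955_at by 0.05 ± 0.15 (SE, n = 3 pools a group). On the HFD they differed by -1.03 and -0.50, and both were separated. The single probe set of Cav1 carries the suffix of sets that can match more than 1 transcript of a gene.

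**Figure D5:**
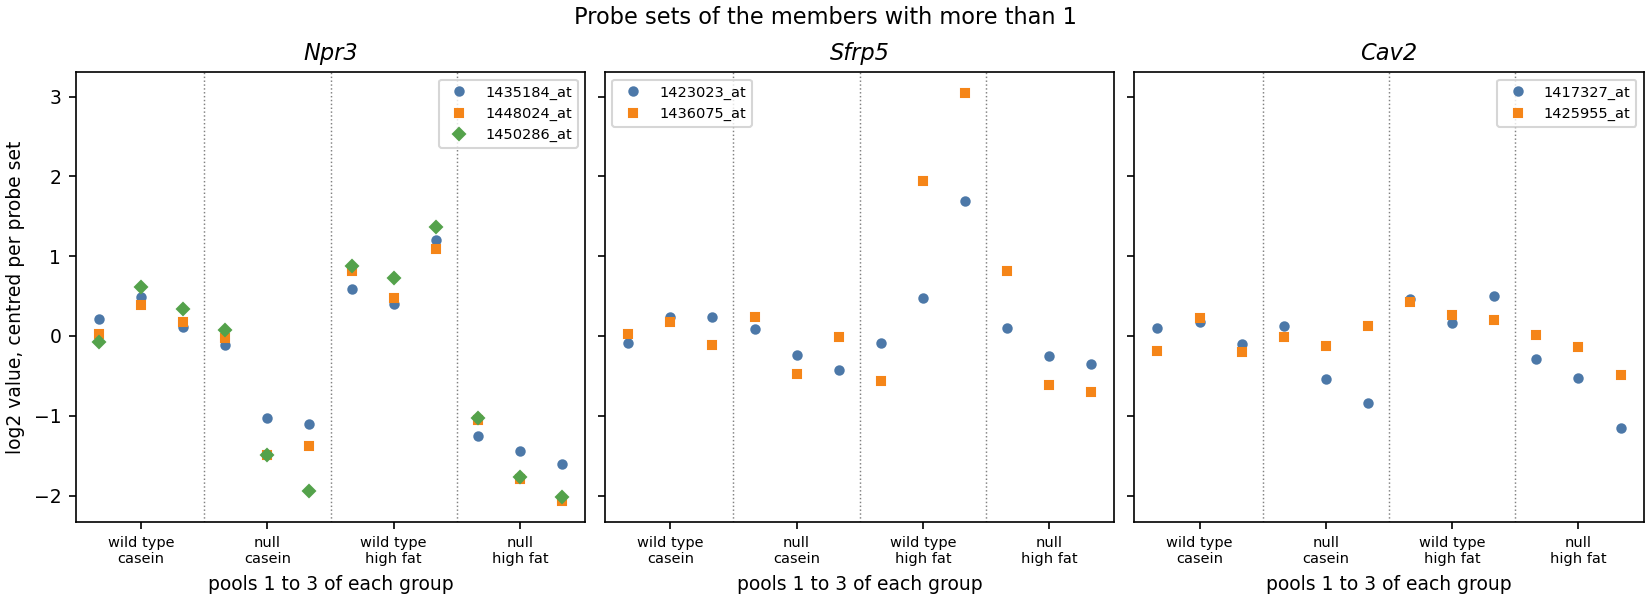
Log2 values, centred per probe set, of the probe sets of Npr3, Sfrp5 and Cav2 in the 12 pools. The 3 of Npr3 run together, and 1436075_at spreads more than 1423023_at for Sfrp5. Those of Cav2 part most in pool 3 of the null casein and null HFD groups.

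How alike the genes ran is given as a description over the 12 pools, which share the group structure and the mix of tissues. Lep and Mest had a Pearson r of 0.972 and a Spearman rho of 0.951, and r was 0.921 for deviations from the group means. Without WT HFD pool 3 and null HFD pool 3, the pools farthest from the median of Lep, r was 0.938 and rho 0.939. Cav1 and Cav2 had r = 0.984, and 0.981 within groups. Npr3 ran close to both, with r = 0.947 with Lep and 0.963 with Cav1. Sfrp5 stood loosest, at 0.568 with Cav1 and 0.213 within groups, and its highest r was 0.784, with Mest.

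Outside the set, the 5 genes with the highest r with Lep, of 16329 compared, were Nln (0.987), Spaca1 (0.977), Rnase2a (0.974), Reep5 (0.972) and Atp2a3 (0.969). Nln encodes the peptidase neurolysin and Atp2a3 a calcium pump of the endoplasmic reticulum. For Mest they were Fam111a (0.978), Prr32 (0.973), Reep5 (0.971), Atp2a3 (0.971) and Bcar3 (0.971). Nln stood at 0.50, 0.37 and 0.93 in WT HFD pools and at -0.16, -0.36 and -0.25 in null pools on that diet, so its range was smaller than that of Lep. Rnase2a spanned more than Lep, from 1.35, 1.71 and 2.79 to -0.59, -0.71 and -0.98 in the same pools. Reep5 and Atp2a3 are on both lists.

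The pathways around these genes were read next, through lists of partners. In the 4 comparisons other than genotype on the HFD, 0 of 95 partner genes passed in limma, and between 4 and 10 had an unadjusted p under 0.05. Of all genes 0% passed in these comparisons, and 4% to 8.12% had such an unadjusted p. On the HFD 5.92% of all genes passed, 3.21% higher and 2.71% lower in null pools. Of the partners 11 passed, and 0 did without WT HFD pool 3, null HFD pool 2 or null HFD pool 3. None passed with the tissue list medians as covariates either. Over the whole array no gene passed without null HFD pool 2, without null HFD pool 3 or with these covariates. Few genes passed without WT HFD pool 3. Under these covariates Wnt4 went from 2.88 to 0.99, Sfrp4 from 2.36 to 0.79, Dkk3 from 1.85 to 0.90, Fst from 1.37 to 0.38 and Bmpr1b from 1.21 to 0.12. Fgf13 and Pde5a stood at -1.24 and 1.16 under them. These covariates include the ovary, oviduct and uterus median, which itself separated the genotypes on the HFD. The fit with them kept 5 residual degrees of freedom, against 8 without. It cannot tell tissue content from genotype. An unadjusted p under 0.05 was found on the HFD for 24.9% of all genes.

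Leptin acts through its receptor Lepr and the kinase Jak2 on Stat3, with Socs3 and Ptpn1 as brakes. Of 9 genes of leptin signalling 0 passed on the HFD in limma, and 3 had an unadjusted p under 0.05 (24.9% of all genes), with a median difference of 0.15 against -0.03 over all genes. Lepr stood at -0.15, -0.28 and -0.67 in WT pools and at 0.43, 0.24 and 0.33 in null pools. These groups did not overlap, in the direction opposite to Lep, and the difference was 0.70 ± 0.18 (SE over 3 pools a group; limma adjusted p = 0.0524). This value depends on the probe sets taken: it was 1.81 (limma adjusted p = 0.0459) with the set of widest span and 1.37 (adjusted p = 0.0491) without sets whose suffix marks shared matches. With the tissue list medians as covariates it was 0.31. Leprot, which shares the start of the Lepr gene and limits receptor at the cell surface, differed by 0.32 ± 0.12 (adjusted p = 0.143).

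Natriuretic peptides act through the guanylyl cyclase receptors Npr1 and Npr2, and cyclic GMP made by these is broken down by Pde5a. Of 9 measured genes of that system 2 had an unadjusted p under 0.05 on the HFD (24.9% of all genes). Of these 1 passed, Pde5a, where 5.92% of all genes passed. It stood at -0.30, -0.51 and -0.94 in WT pools and at 1.13, 0.80 and 0.90 in null pools, and rose by 1.53 ± 0.25 (SE over 3 pools a group; limma adjusted p = 0.0199). After quantile normalization Pde5a was not called on the HFD (limma adjusted p = 0.0802). On casein Pde5a differed by 0.78 ± 0.25 (adjusted p = 0.549). Npr3, which clears the peptides, stood the other way in the same pools.

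SFRP proteins, DKK3 and WNT ligands share a pathway with Sfrp5. Of 30 such genes 5 rose (3.21% of all genes) and 1 fell (2.71%) in null pools on the HFD. The median was 0.12 against -0.03 over all genes, and 14 had an unadjusted p under 0.05 (24.9% of all genes). Dkk3, a secreted protein of the Dickkopf family, stood at -0.52, -0.83 and -1.19 in WT pools and at 0.86, 0.84 and 1.31 in null pools, and rose by 1.85 ± 0.28 (SE over 3 pools a group; limma adjusted p = 0.0165). Sfrp4 and Sfrp1, secreted antagonists like Sfrp5, rose by 2.36 ± 0.51 (adjusted p = 0.0318) and 0.97 ± 0.23 (adjusted p = 0.0379), while Sfrp5 stood lower. The probe set of widest span gave 1.62 for Sfrp1 (adjusted p = 0.0645). Wnt4, a ligand needed for female reproductive tract development, rose by 2.88 ± 0.60 (adjusted p = 0.0298). The ovary, oviduct and uterus median moved with these rises, from -1.03 to -0.91 in WT and from 0.12 to 0.90 in null pools. Of its 20 markers 8 rose (3.21% of all genes), among them Inha by 6.79. The part of this median in the rises was not tested. The other calls were Wnt6, higher, and the receptor Fzd4, lower.

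Bmp3 itself was not analysed here. Of 26 measured genes of BMP signalling 2 rose on the HFD (3.21% of all genes) and 0 fell (2.71%). The median was -0.02 against -0.03 over all genes, and 8 had an unadjusted p under 0.05 (24.9% of all genes). Fst, which encodes the activin and BMP binding protein follistatin, rose by 1.37 ± 0.34 (SE over 3 pools a group; limma adjusted p = 0.0439). Bmpr1b, a type I receptor, rose by 1.21 ± 0.28 (adjusted p = 0.0375), and by 3.19 in its probe set of widest span. Both are also expressed in ovarian follicles, and the ovary, oviduct and uterus median moved with them.

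Caveolae need cavins, which coat them, beside the caveolins. Of 7 measured caveola genes 1 fell on the HFD (2.71% of all genes). The median was -0.50 against -0.03 over all genes, and 4 had an unadjusted p under 0.05 (24.9% of all genes). Cavin3 stood at 0.71, 0.39 and 1.01 in WT pools and at -0.24, -0.28 and -0.38 in null pools, and fell by 1.001 ± 0.210 (SE over 3 pools a group; limma adjusted p = 0.0299). After quantile normalization Cavin3 was not called (limma adjusted p = 0.0616). The median of the caveola genes ran from 0.19 to 0.39 in WT and from -0.14 to -0.02 in null pools. Both the adipocyte and the endothelial medians were lower in the same null pools. Of 15 endothelial markers 3 fell (2.71% of all genes), Erg, Pecam1 and Esam. In WT pools the diet difference of Cavin3 was 0.60 ± 0.21 (adjusted p = 0.599).

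The neighbours of Mest on chromosome 6 were read beside it. Of 6 measured neighbours 0 passed on the HFD in limma, and 2 had an unadjusted p under 0.05 (24.9% of all genes), with a median of -0.13 against -0.03 over all genes. Copg2, which overlaps the 3' end of Mest on the opposite strand, differed by -0.31 ± 0.09 (SE over 3 pools a group; limma adjusted p = 0.0693). Klf14, a maternally expressed imprinted transcription factor, differed by -0.997 ± 0.302 (adjusted p = 0.0737) and was at 1.42 in WT HFD pool 3 against 0.03 and 0.22 in pools 1 and 2. Without that pool it differed by -0.56. Both differences lay closer to 0 than that of Mest, which was not tested.

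Of 9 measured other genes known to follow fat expansion 1 fell on the HFD (2.71% of all genes). The median was -0.24 against -0.03 over all genes, and 5 had an unadjusted p under 0.05 (24.9% of all genes). Fgf13, an intracellular member of the fibroblast growth factor family, stood at 0.76, 0.22 and 1.27 in WT pools and at -0.71, -0.69 and -0.71 in null pools. It fell by 1.45 ± 0.23 (SE over 3 pools a group; limma adjusted p = 0.0182). Egfl6 stood the other way without a call, at -0.66, -0.71 and -0.83 in WT and -0.01, 0.79 and 1.29 in null pools. Thbs1, also not called, was higher in null pools too, at 0.38, 1.06 and 0.42 against -0.88, -0.80 and 0.38. As for Lep, WT HFD pool 3 was the highest for Fgf13 and pool 2 the lowest of that group. On casein Fgf13 differed by -0.58 ± 0.23 (adjusted p = 0.581).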

How the data were processed

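Total RNA (8 µg) of 12 pools of fat pads was hybridised to Affymetrix arrays of 45101 probe sets. The submitters' processing notes name GCOS and RMA without versions. The deposited values are on a log2 scale of the kind RMA gives. The base is not stated and was taken as 2, and the table is centred on the median of each probe set, so levels and signal over background are lost. Precision is limited by the number of arrays.

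Probe sets with 1 gene in the platform annotation (34958, against 932 with several and 9211 with none) were averaged into 18195 genes. Symbols came from RefSeq (GRCm38.p6), which held 34754 of them, and served for names and neighbours only. Promoter windows were found for 6 of the genes of interest.

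In limma 3.58.1 (R 4.3.3), 4 group means were fitted to the 12 pools, with 8 residual and 2.5 prior degrees of freedom. Two-sided p-values were adjusted over all genes (Benjamini-Hochberg, threshold 0.05). Pool sizes are not given, so p-values measure the spread between pools. The script was tested on simulated data.

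The genes of interest and all lists were chosen with earlier results of these data known and give no independent support. Named were every gene of interest, Ncf1, the 5 genes most like Lep and the 5 most like Mest, and of each pathway list up to 4 genes past the threshold or, where none passed, the 2 with the smallest p. Other genes named (Fzd4, Wnt6, Sncg, Egfl6, Thbs1 and single list markers) were chosen after their values were seen. Alternatives covered probe set choice, normalization, moderation, weights, covariates, the samples fitted, a replicate block and each pool left out. Subtracting the adipocyte median was added after seeing the data. Deviations of pools with the same number had r from -0.61 to 0.59 over 18 pairs, 3 over 0.1. These 3 joined the diets within a genotype: null pools 1 (0.55), null pools 3 (0.59) and WT pools 3 (0.30). The other pairs did not deviate together, and the numbers were not taken as pairs.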

Additional observations from a re-analysis of the deposited data

How the results depend on the processing

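None of the 6 genes passed in the 4 tested comparisons under any alternative that gave a value. All 3 null pools lay below all 3 WT pools on the HFD for 5 of them, for 5 or 6 with 1 pool left out. Across all 18195 genes that comparison called 1077. With each probe set alone it called 1634 of 34958 probe sets, a count of another unit than genes. Among genes it called 523 after quantile normalization again, 5116 with array weights (which stopped before converging) and 0 with tissue covariates. It called 440 without 3 pools rich in muscle or liver genes and 542 with the replicate block. Relative to the adipocyte median, which shifts every gene by 0.53, it called 10939. The count ran from 0 to 1617 with 1 pool left out. It was 0 without null HFD pool 2 or pool 3, and 32 without WT HFD pool 3. The diet comparison in null pools, with 0 calls, gave 942 with array weights and 1 with trend and robust moderation. That in WT pools gave 1 without the 3 pools, and genotype on casein gave 1 after quantile normalization and 1 with covariates. With 1 pool left out the calls ran from 0 to 15 for diet in WT pools, 0 to 1 in null pools, 0 to 46 for genotype on casein and 0 to 10 for the interaction. The replicate block changed no call among the 6 genes. It left 5 of the 11 partner genes called on the HFD, 2 of 6 of the SFRP and WNT list and 0 of 2 of the BMP list, with adjusted p of 0.0540 for Sfrp4, 0.0525 for Sfrp1, 0.0604 for Fst and 0.0645 for Bmpr1b at the same differences. Quantile normalization also left 5 of the 11 called, with 4 on the SFRP and WNT list and 0 on the natriuretic, BMP and caveola lists. Its limma adjusted p was 0.0802 for Pde5a and for Fst, 0.0574 for Sfrp4, 0.0733 for Bmpr1b and 0.0616 for Cavin3. Lepr, not called, passed under 9 of 24 alternatives (limma adjusted p from 0.0104 to 0.973). Of the differences of the 6 genes, quantile normalization moved Mest, Npr3 and Lep to -4.02, -3.38 and -2.36 between genotypes on the HFD. With tissue covariates Cav1 and Cav2 stood at 0.13 and 0.22 for diet in WT pools, at -0.16 and -0.069 for genotype on casein and at -0.25 and -0.32 for the interaction, and array weights gave Mest an interaction of -1.05. Relative to the adipocyte median the interaction was -0.27 for Lep, -0.71 for Npr3, -0.55 for Sfrp5 and -0.067 for Cav2, and the WT diet differences of Cav1 and Cav2 were 0.024 and 0.15.

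Signs turned mainly for diet in null pools, where differences were small. With quantile normalization Lep stood at 0.15, Mest at 0.46 and Sfrp5 at 0.031, and with array weights Mest at 0.39. With tissue covariates Mest stood at 0.018 and Sfrp5 at 0.14. Relative to the adipocyte median Lep, Mest, Sfrp5, Cav1 and Cav2 stood at 0.17, 0.28, 0.28, 0.11 and 0.084. Without null casein pool 1 Lep, Mest and Sfrp5 stood at 0.064, 0.43 and 0.12, without null HFD pool 2 Sfrp5 at 0.10, and without null HFD pool 3 Mest at 0.16 and Sfrp5 at 0.15. With 1 pool left out, Lep ran from -0.24 to 0.064, Mest from -0.29 to 0.43 and Sfrp5 from -0.34 to 0.15. Elsewhere Sfrp5 on casein turned to 0.15 and Leprot on the HFD to -0.0025 with tissue covariates. Relative to the adipocyte median the interaction of Cav1 turned to 0.084 and Copg2 on the HFD to 0.22. The causes were not tested, except that the adipocyte setting shifts all genes alike by construction.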
